A study of Homo sapiens with 4 samples.

Results

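CSMD1, CNTNAP2, RBFOX1, DLG2, AUTS2 and MAGI2 are 6 very long genes with known functions in neurons, and they were examined for the histone mark H3K9me2 in K562 cells, an established human myeloid leukemia line. They were chosen by name and by fixed gene bodies in the hg19 build, not by a measured value of a peak, though with earlier results of these data known. The members are the deposited H3K9me2 peaks that overlap these bodies, 1102 and 1137 peaks in control libraries 1 and 2 and 1098 and 1048 in CUX1 knockout libraries 1 and 2, of 250000 in each list. Together the bodies span 10.9 Mb, or 0.358% of chromosomes 1 to 22 and X. CUT&RUN was the assay, a method that directs a nuclease to antibody-bound chromatin and sequences the fragments it frees. Control libraries (2) were made from K562 cells given a CRISPR guide against HPRT, and the 2 knockout libraries from K562 cells given a CRISPR guide against CUX1, a homeodomain transcription factor. Both groups therefore received a guide, and whether either locus was edited was not checked here. The labels give neither a time after editing nor whether the cells were a clone or a pool. The labels do not say that replicates came from separate cultures, so the spread between them, and the p-values below, may be technical. No RNA was measured in these libraries, so whether the genes are silent in K562 cells could not be checked here. CUX1 protein and RNA were likewise not measured.

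H3K9me2 stands for histone H3 carrying 2 methyl groups at lysine 9. The methyltransferases G9a and GLP deposit it over broad stretches of chromatin, often at the nuclear lamina, and long genes that a cell type does not use often lie in such stretches. CSMD1 encodes a large membrane protein with CUB and Sushi domains that limits complement, and CNTNAP2 encodes Caspr2, a neurexin-family adhesion protein that gathers potassium channels along myelinated axons. DLG2 (PSD-93) and MAGI2 (S-SCAM) are membrane-associated guanylate kinase scaffolds of the synapse. RBFOX1 is an RNA-binding protein that sets neuronal splicing, and AUTS2 is a nuclear protein of neural development that associates with a variant Polycomb complex.

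The gene starts are shown first, because a start is the fixed point from which coverage along these genes is described. RefSeq promoter sequences (build GRCh38.p14) were matched for 5 of the 6 genes. The 250 bases before the start are printed 5′ to 3′ on the gene's strand for the 3 genes on chromosome 7, with every CG in capitals, since CG-dense promoters are the kind that is usually kept free of H3K9 methylation.
AUTS2 (chr7:69598225-69598474, plus strand): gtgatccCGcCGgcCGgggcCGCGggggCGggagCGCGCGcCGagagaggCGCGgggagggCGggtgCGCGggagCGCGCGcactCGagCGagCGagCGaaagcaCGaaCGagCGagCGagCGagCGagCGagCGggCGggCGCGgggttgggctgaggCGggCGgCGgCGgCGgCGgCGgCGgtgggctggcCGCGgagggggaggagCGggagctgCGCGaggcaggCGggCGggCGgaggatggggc
CNTNAP2 (chr7:146116551-146116800, plus strand): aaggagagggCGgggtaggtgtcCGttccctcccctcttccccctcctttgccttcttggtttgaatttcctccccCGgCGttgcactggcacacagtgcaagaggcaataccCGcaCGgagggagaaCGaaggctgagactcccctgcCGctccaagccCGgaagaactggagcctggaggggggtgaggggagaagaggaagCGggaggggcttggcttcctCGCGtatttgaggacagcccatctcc
MAGI2 (chr7:79453668-79453917, minus strand): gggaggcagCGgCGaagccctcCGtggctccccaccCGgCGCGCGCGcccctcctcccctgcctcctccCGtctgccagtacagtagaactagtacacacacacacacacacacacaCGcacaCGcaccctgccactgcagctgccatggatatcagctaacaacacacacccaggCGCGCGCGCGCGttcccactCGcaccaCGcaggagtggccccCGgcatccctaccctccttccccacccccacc
The letters CG were counted on the printed strand, where they read the same as on the other strand. The AUTS2 stretch held 49 CG and was 82.8% G or C, more CG than 99.8% of the 35116 RefSeq promoters of the same length. MAGI2 held 20 CG, DLG2 also held 20, RBFOX1 held 24 and CNTNAP2 held 12. The median over all promoters was 11, with quartiles of 3 and 23, and 93.9% of promoters held at least 1. These counts describe the sequence only, and the GRCh38 positions were not aligned to the hg19 peaks.

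In the hg19 bodies, the base at the annotated start lay under no peak in any of the 4 libraries at AUTS2, CNTNAP2, MAGI2 and RBFOX1. At MAGI2 the nearest peak was 1.62 and 1.44 kb away in the controls and 1.99 and 2.20 kb away in knockout cells. At CNTNAP2 it was 1.67 and 0.471 kb away in the controls and 0.586 and 11.9 kb away in knockout cells. At AUTS2 the distances were 1.19 and 7.25 kb in the controls and 0.645 and 2.21 kb in knockout cells. DLG2 differed from these, with its start under a peak in both knockouts and 0.563 and 0.307 kb from one in the controls. In the 20 kb around the AUTS2 start, 66.6% of bases lay under peaks in control 1 but 9.52% in control 2, against 8.60% and 19.0% in knockout cells, so the groups overlapped and control 1 stood apart. With most of each body outside peaks, a single base outside them is the common case, and these positions carry no test. The 3′ end of CNTNAP2 was the only one of the 12 body ends that lay under a peak in all 4 libraries, with 51.4%, 56.9%, 37.5% and 62.8% of the surrounding 20 kb covered in control 1, control 2, knockout 1 and knockout 2.

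Coverage, the percent of bases under at least 1 peak, was lower in both knockout libraries than in both controls in all 6 gene bodies. This was the common direction in the genome, since 63.7% of all 2802 regions compared (the bodies, their flanks and all other 1-Mb windows with at least 1% mean coverage) had the same order and 1.46% the opposite one. The median difference was -11.75 percentage points over the 6 bodies and -6.32 points over all 2802 regions. Chromosomes differed in this, so the 2 medians do not compare like with like. Outside the gene bodies the difference was -10.5 points on chromosome 7, which holds CNTNAP2, AUTS2 and MAGI2. It was -6.84 points on chromosome 8 (CSMD1), -6.90 on chromosome 11 (DLG2) and -5.01 on chromosome 16 (RBFOX1). In a limma fit over all regions, 4.07% of them passed with lower coverage (Benjamini-Hochberg adjusted p under 0.05) and 0.0714% with higher coverage. None of the 6 bodies passed in this fit, while 2 of the 6, AUTS2 and MAGI2, had an unadjusted p under 0.05, as had 17% of all regions. In simulated data such a fit recovered 12% of drops of 10 points and 69% of drops of 20 points. Not passing therefore does not show equal coverage. The exact permutation test of 2 libraries against 2 cannot go below p = 0.333, and it gave that value for each of the 6 bodies. Without knockout 2, which lay nearer the controls, 5 of the 6 bodies passed (limma adjusted p from 6.85e-11 at MAGI2 to 0.00959 at CSMD1), and RBFOX1 did not, but 61.4% of all regions also passed with lower coverage in that fit. Without knockout 1, only AUTS2 (limma adjusted p = 0.0111) and MAGI2 (1.35e-04) passed, against 12.5% of all regions. In both fits the lone knockout library was assumed to vary like the others.

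CSMD1, the complement-regulating membrane protein, spans 2.06 Mb of chromosome 8 (2792875 to 4852328). Peaks covered 23.2% and 25.6% of it in the controls and 13.2% and 19.2% in knockouts 1 and 2. The means were 24.4% ± 1.65 and 16.2% ± 4.20 (SD, n = 2 each), and the difference of -8.19 points did not pass (limma SE 4.88, adjusted p = 0.328). Knockout 1 lay further from the controls than knockout 2 did. The flank on the low-coordinate side had overlapping groups, with 23.8% and 19.5% in the controls and 15.6% and 22.2% in knockout cells. On the other side the flank held 20.8% and 29.1% against 14.9% and 19.7%, close to the values of the body.

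CNTNAP2, the axonal adhesion gene, is the longest of the 6 at 2.30 Mb (chromosome 7, 145813453 to 148118090). With MAGI2 it was the most densely covered of them in control cells. Coverage was 37.9% and 39.0% in the controls, 19.6% in knockout 1 and 30.7% in knockout 2. The controls were close to each other and the knockouts were not. Means were 38.4% ± 0.768 and 25.2% ± 7.85 (SD, n = 2 each), a difference of -13.3 points (limma SE 6.84, adjusted p = 0.296). Both flanks behaved like the body, with 34.4% and 39.7% against 20.3% and 28.0% on the low-coordinate side and 39.3% and 40.3% against 21.0% and 33.9% on the high-coordinate side. The high-coordinate flank is gene-rich, with CUL1 and EZH2, the H3K27 methyltransferase, among the coding genes that RefSeq lists there.

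DLG2, a synaptic scaffold of 2.17 Mb on chromosome 11 (83166056 to 85338314), had 30.9% and 33.3% of its body under peaks in the controls and 17.1% and 26.6% in knockout cells. As at CSMD1 and CNTNAP2, knockout 2 lay between the controls and knockout 1. The means were 32.1% ± 1.66 and 21.8% ± 6.69 (SD, n = 2 each), and the difference was -10.2 points (limma SE 5.43, adjusted p = 0.301). Its flanks were more densely covered than the body in every library, with 39.7%, 38.0%, 22.5% and 32.5% on the low-coordinate side and 39.6%, 34.7%, 26.3% and 34.3% on the high-coordinate side (control 1, control 2, knockout 1, knockout 2).

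MAGI2, the other synaptic scaffold, spans 1.44 Mb of chromosome 7 (77646374 to 79082890). It showed the largest difference in points of the 6 bodies, with control values of 39.2% and 36.4% and knockout values of 17.9% and 23.5%. Means were 37.8% ± 1.93 and 20.7% ± 3.93 (SD, n = 2 each), a difference of -17.1 points or -45.2% of the control mean (limma SE 5.91, adjusted p = 0.0830). The gap between the groups, from 23.5% to 36.4%, was wider than the spread within either. On the low-coordinate side, toward PHTF2, the flank held 33.8% and 29.8% in the controls and 21.4% and 27.4% in knockout cells, a smaller difference of -7.43 points. On the high-coordinate side, toward GNAI1, it held 34.2% and 36.9% against 16.1% and 23.4%, a difference of -15.8 points (limma SE 5.54, adjusted p = 0.0894).

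AUTS2, the Polycomb-associated nuclear protein, is the shortest of the 6 at 1.19 Mb (chromosome 7, 69063905 to 70257885). Its body was under peaks over 26.8% and 26.5% of its length in the controls and over 12.5% and 13.4% in knockout cells. Both knockouts were alike here, unlike at CNTNAP2, DLG2 and CSMD1. Means were 26.6% ± 0.235 and 12.9% ± 0.640 (SD, n = 2 each), and the difference of -13.7 points, or -51.5% of the control mean, did not pass (limma SE 4.83, adjusted p = 0.0894). The gene is surrounded by few coding genes, with GALNT17 and CALN1 in the megabase after its 3′ end in RefSeq. That flank passed, with 29.8% and 30.9% in the controls and 12.4% and 14.4% in knockout cells (difference -16.9 points, limma SE 5.00, adjusted p = 0.0196). Its call was lost without control 1 or control 2 (limma adjusted p = 0.870 and 0.866, with differences of -17.5 and -16.4 points), at equal covered length (-8.82 points, limma adjusted p = 0.161), after quantile normalization (0.0901) and with no minimum coverage (0.153). With 1 limit on −log10 p for all lists the difference was -0.85 points and with 1 limit on −log10 q -5.14 points (limma adjusted p = 0.865 and 0.814). The flank before the gene held 24.0% and 26.0% against 10.5% and 13.1% (-13.2 points, limma adjusted p = 0.0894). Body and flanks thus differed by -51.5%, -52.9% and -55.9% of their control means, while chromosome 7 outside the gene bodies differed by -33.0%.

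RBFOX1, the splicing regulator, was the most sparsely covered body in every library. The hg19 body used here spans 1.69 Mb of chromosome 16 (6069132 to 7763340), shorter than the RefSeq gene model of 2473620 bp, so the flank before its start may lie largely inside the longer model. Peaks covered 12.3% and 11.4% of it in the controls and 9.49% and 10.1% in knockout cells. The means were 11.9% ± 0.631 and 9.78% ± 0.404 (SD, n = 2 each), a difference of -2.08 points (limma SE 2.78, adjusted p = 0.586). The groups did not overlap, but they lay closer to each other than at any of the other 5 bodies. The flank on the low-coordinate side was also sparse, at 16.8%, 13.8%, 12.0% and 11.9%, while the flank after its 3′ end held 30.6%, 25.1%, 16.9% and 19.6% (control 1, control 2, knockout 1, knockout 2).

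**Figure D1:**
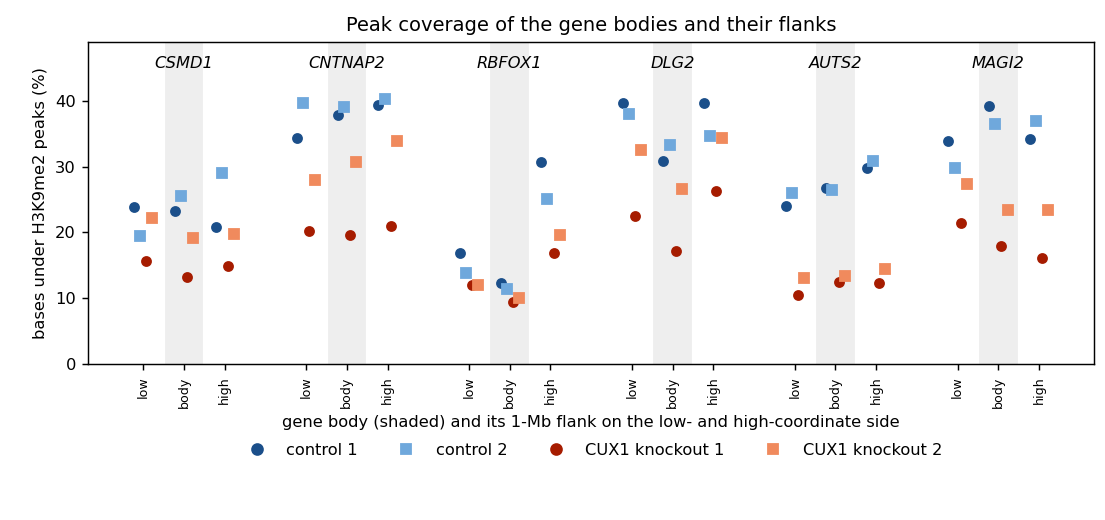
Percent of bases under H3K9me2 peaks (vertical axis) in each gene body (shaded) and in the 1-Mb flank on each side, with 1 point per library. The 4 points of RBFOX1 lie between 9.49% and 12.3%, below those of the other bodies, and the points of the AUTS2 body and of both its flanks fall into separate control and knockout pairs.

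Ordered by control mean, the bodies ran from CNTNAP2 (38.4%) and MAGI2 (37.8%) through DLG2 (32.1%), AUTS2 (26.6%) and CSMD1 (24.4%) to RBFOX1 (11.9%). CNTNAP2 and MAGI2 did not differ beyond the spread between libraries, nor did AUTS2 and CSMD1, whose nearest control values were 26.5% and 25.6%. In the knockouts AUTS2 took a lower place, at 12.9%, below CSMD1 at 16.2%, though the knockout values of the 2 genes overlapped. The whole of chromosomes 1 to 22 and X had 22.8%, 22.4%, 13.9% and 19.3% covered in control 1, control 2, knockout 1 and knockout 2. Relative to these values, on a log2 scale, the knockout minus control difference was -0.55 at AUTS2 (limma adjusted p = 0.172), -0.40 at MAGI2 (0.0684), -0.17 at CNTNAP2, -0.13 at CSMD1, -0.11 at DLG2 and 0.20 at RBFOX1. None of the 6 passed, against 1.96% of all regions with a lower and 0.143% with a higher value on this scale. AUTS2 and MAGI2 were thus the 2 bodies that lay below the genome's own difference by more than the others, and RBFOX1 lay above it.

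Because body and flanks are read from the same list, the body minus the mean of its flanks was tested as well. MAGI2 was covered more densely than its flanks by 5.14 and 3.09 points in the controls and less densely in knockout cells, at -0.835 and -1.90 points. This difference of -5.48 points (SE 1.88) had an unadjusted p of 0.0212 and did not pass (limma adjusted p = 0.519). CSMD1 had the same order, with 0.888 and 1.28 points in the controls and -2.01 and -1.76 in knockout cells (difference -2.97, limma SE 1.78, adjusted p = 0.693). RBFOX1 had the opposite one. It lay -11.4 and -8.00 points from its flanks in the controls and -4.95 and -5.70 in knockout cells (difference 4.38, limma SE 2.00, adjusted p = 0.588). Such separation is common, since 20.1% of 2790 regions had both knockouts below both controls on this measure and 18.7% had both above. At CNTNAP2, DLG2 and AUTS2 the groups overlapped. In this fit limma called 0 of the 2790 regions, with 235 at an unadjusted p under 0.05.

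Within libraries, RBFOX1 and DLG2 were the bodies covered less densely than their flanks in 4 of 4 libraries, by a mean of -7.52 ± 2.91 and -6.50 ± 2.40 points (SD, n = 4 libraries). How many of all regions lie below their flanks in 4 of 4 libraries was not computed, so this count does not set the 2 bodies apart. The exact sign-flip test over 4 libraries gave its smallest possible p, 0.125, for both (0.375 after adjustment over the 6 genes). The other bodies lay on either side of their flanks, with means between -0.399 points at CSMD1 and 1.37 points at MAGI2.

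H3K9me2 peaks inside the bodies were narrower in both knockouts than in both controls at all 6 genes, the order found in 75.6% of 2790 regions of the genome (0.0358% had the opposite order). The median width at AUTS2 was 2502 and 2118 bp in the controls and 994.5 and 1195 bp in knockout cells, a difference of -52.6%. At RBFOX1 it was 2408.5 and 1769 bp against 955 and 1248 bp (-47.3%), and at MAGI2 2740.5 and 2580 bp against 1286 and 1789 bp (-42.2%). These 3 and CSMD1 (2332 and 2083 bp against 1031 and 1594 bp, -40.5%) differed by more than the genome-wide median, which went from 2335 and 2275 bp to 1324 and 1900 bp (-30.1%). CNTNAP2 (2340 and 2704 bp against 1483 and 2117.5 bp) and DLG2 (2304.5 and 2368 bp against 1264 and 2012 bp) were close to the genome, at -28.6% and -29.9%. The knockout mean of the median width was also lower in the low- and high-coordinate flanks. It differed by -46.4% and -50.0% at AUTS2, -51.2% and -46.2% at RBFOX1 and -36.5% and -41.8% at CSMD1. At MAGI2 it was -5.35% and -40.3%, at CNTNAP2 -27.5% and -19.6%, and at DLG2 -30.5% and -3.97%. The groups overlapped in the low-coordinate flank of MAGI2 (2154 and 2148 bp in the controls against 1576 and 2496 bp). They also overlapped in the high-coordinate flank of DLG2 (2490 and 2300.5 bp against 1980.5 and 2620 bp). The exact permutation p was 0.333 for each gene body, the smallest possible with 2 libraries a group, and whether the genes differ from the genome was not tested. The caller's smallest width differs between the lists, and width divided by it was still lower on the knockout side, with a median over the 6 genes of -29.4% against -41.4% in base pairs.

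Wide peaks were rare in AUTS2 and in its flanks in knockout cells. In the body, peaks of 5 kb or more made up 14.4% and 15.5% of peaks in the controls. They were 0 of 112 in knockout 1, where the widest peak was 4937 bp, and 3.03% in knockout 2. The low-coordinate flank had 19.4% and 10.0% in the controls against 0% and 2.60%, and the high-coordinate flank 15.1% and 12.1% against 0% and 3.53%. At MAGI2 they made up 18.8% and 14.0% in control cells and 0.595% and 6.54% in knockout cells, and at RBFOX1 12.8% and 6.74% against 1.64% and 1.98%. Over the genome it was 12.6% and 11.9% against 2.66% and 7.96%, so wide peaks were scarce in knockout 1 at genome scale as well.

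In the lists as deposited, spacing separated RBFOX1 from the other 5 genes. This did not hold when all lists were cut at a common limit on −log10 p or −log10 q, as given in the last section. The median gap between neighbouring peaks was longer in both knockouts than in both controls at CSMD1, CNTNAP2, DLG2, AUTS2 and MAGI2, for example 3487 and 4176 bp against 5325 and 5380 bp at MAGI2. That order was found in 47.1% of regions. Over the genome it went from 4210 and 4526 bp to 5848 and 5037 bp. At RBFOX1 the gap was shorter in knockout cells, at 7770 and 9718.5 bp, than in the controls, at 13297 and 11341.5 bp (-29.0%, exact permutation p = 0.333), an order found in 12.5% of regions. Peaks there numbered 46.0 and 52.5 per Mb in the controls and 72.0 and 59.6 per Mb in knockout cells, and 28.6% of regions had both knockouts higher in density and 26.7% both lower. In the other bodies peak density ranged from 82.9 to 135 per Mb over all libraries, and every list as a whole held 82.3 per Mb. RBFOX1 thus held more listed peaks in knockout cells, with a lower median width. Its low-coordinate flank, which may belong to the longer gene model, had the same pattern, with 59 and 63 peaks per Mb in the controls and 85 and 77 in knockout cells.

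**Figure D2:**
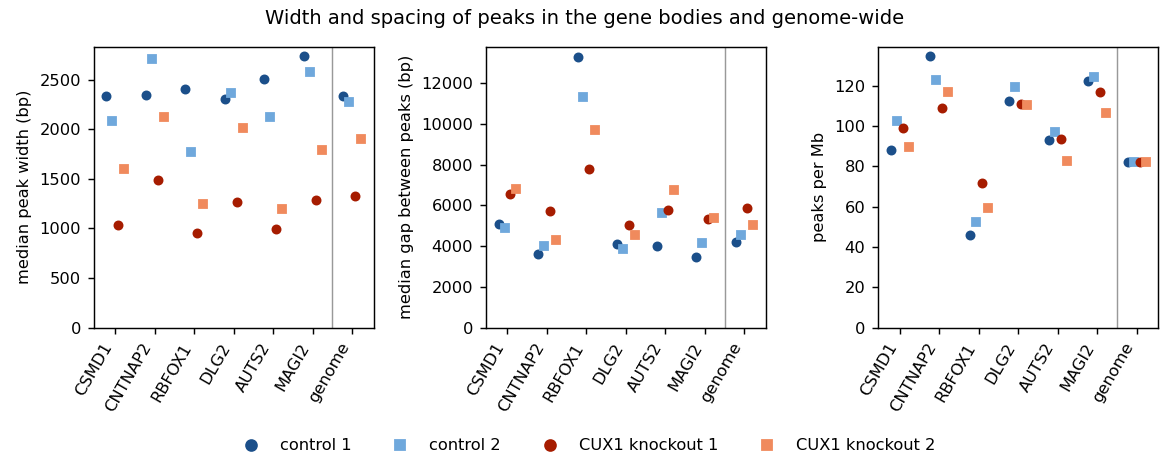
Median peak width (left), median gap between neighbouring peaks (middle) and peaks per Mb (right) in each gene body and over chromosomes 1 to 22 and X, with 1 point per library. Width is lower in both knockouts in every column, and in these lists as deposited RBFOX1 is the gene whose gaps are shorter and whose peak density is higher in knockout cells.

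Each list holds 250000 peaks, while the serial numbers attached to peak names run higher. Read as a count of every peak called, a reading that no source used here states, the numbers mean that the lists kept 32.0% and 40.5% of the RBFOX1 peaks in the controls and 59.2% and 59.1% in knockout cells. By serial number RBFOX1 then held 144 and 130 peaks per Mb in the controls and 122 and 101 in knockout cells, the opposite order to the listed peaks. AUTS2 held 170 and 160 per Mb against 141 and 134. CNTNAP2 held fewer in the controls, 166 and 161 per Mb, than in knockout cells, 208 and 178, and the lists kept 81.4% and 76.5% against 52.4% and 65.9% of them. The order of the groups in peak number therefore changed at RBFOX1, CNTNAP2, DLG2 and MAGI2 with whether unlisted peaks were counted. DLG2 had 112 and 119 listed peaks per Mb in the controls against 111 and 110 in knockout cells. By serial number it had 167 and 163 against 180 and 173. MAGI2 had 123 and 125 listed against 117 and 107. By serial number it had 162 and 162 against 185 and 168. At AUTS2 and CSMD1 the knockout mean was the lower one either way, with overlapping groups in the listed peaks. Over the genome the lists kept 58.1% and 64.7% in the controls and 55.8% and 65.6% in knockout cells.

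Along the gene, both knockouts lay below both controls in 10 of 10 equal bins of the body at CNTNAP2 and MAGI2. The margin was narrow in bin 10 of each, where knockout 2 held 41.3% and 36.2% and the lower control 41.9% and 36.6%. In windows of 100 kb the order held in 15 of 22 at CNTNAP2 and 10 of 13 at MAGI2. That order was held by 43.3% of all 100-kb windows of the genome and by 63.7% of the 2802 larger regions, mostly of 1 Mb. The bins lie between these sizes, and no share was computed for regions of their length. The same was found in 9 bins of AUTS2, 7 of DLG2, 6 of CSMD1 and 4 of RBFOX1. The mean difference along AUTS2 was largest in bin 1, at its 5′ end. There, peaks covered 32.3% and 31.3% in control cells and 5.07% and 8.85% in knockout cells, while in bin 8 it was 10.3% and 18.1% against 18.7% and 16.0%, with overlapping groups. RBFOX1 had 1 bin, bin 3, in which the knockouts were the higher ones, at 8.56% and 10.5% against 7.30% and 6.11%.

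MAGI2 was unevenly covered in knockout cells. Split at its midpoint, the 5′ side held 36.8% and 35.1% in the controls and 13.2% and 17.1% in knockout cells, and the 3′ side 41.5% and 37.7% against 22.7% and 29.9%. The ratio of the 5′ to the 3′ side was 0.887 and 0.931 in control cells and 0.582 and 0.573 in knockout cells. With every list read to the same covered length it was 0.754 and 0.722 against 0.582 and 0.577, still apart. With 1 limit on −log10 p for all lists it was 0.913 and 0.616 against 0.582 and 0.555, and with 1 limit on −log10 q 0.917 and 0.607 against 0.602 and 0.452, so control 2 came close to the knockouts. The groups were also apart in the deposited lists at CSMD1 (low- to high-coordinate side, 0.991 and 0.934 against 1.38 and 1.23). The same held at CNTNAP2 (0.908 and 0.932 against 0.861 and 0.890) and AUTS2 (1.11 and 1.20 against 0.831 and 1.10). They overlapped at DLG2 and RBFOX1, and at equal covered length at CSMD1 and AUTS2 too. The MAGI2 ratio was picked after its values were seen, and it has no test and no share over other regions.

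**Figure D3:**
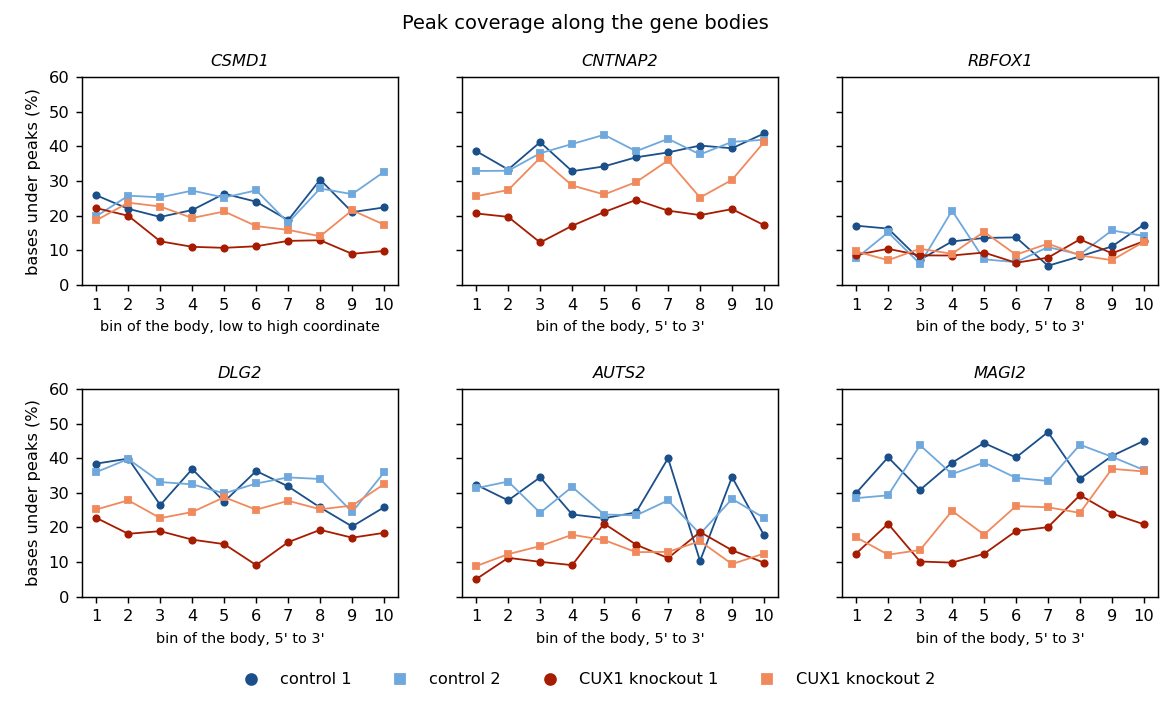
Percent of bases under peaks (vertical axis) in each of 10 equal bins of the gene body, from 5′ to 3′ (CSMD1 by coordinate), with 1 line per library. At MAGI2 the 2 knockout lines stay below the control lines in all 10 bins and rise toward the 3′ end, and at AUTS2 they start at 5.07% and 8.85% against 31.3% and 32.3% in the controls.

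At a finer scale, 103 windows of 100 kb lay inside the bodies, and limma called none of them, with 24 (against 15% of all windows) at an unadjusted p under 0.05. Of all 27547 windows tested, 0.098% passed with lower and 0% with higher coverage. Both knockouts lay below both controls in 65 of the 103 windows (63.1%) and above in 2 (1.94%), both of these in RBFOX1, against 43.3% and 4.98% of all windows. The median difference was -11.0 points inside the bodies and -5.93 points over all windows. MAGI2 had the largest median of the 6 genes, -20.1 points over 13 windows, and RBFOX1 the smallest, -2.05 points over 16.

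Per gene, 1 window was taken as the one with the largest difference among those with separate groups, so its size is partly due to that choice. In AUTS2 this was the window from 69100001 to 69200000 in the 5′ part of the gene, with 43.2% and 34.8% in the controls and 6.59% and 9.12% in knockout cells (difference -31.2 points, limma SE 7.85, adjusted p = 0.0603). In MAGI2 the window from 78400001 to 78500000, near the middle of the gene, went from 39.9% and 40.2% to 11.0% and 13.7% (-27.7 points, limma adjusted p = 0.0802). The CNTNAP2 window from 147500001 to 147600000 held 49.9% and 42.0% against 23.9% and 24.3% (limma adjusted p = 0.230). In DLG2, the window from 84100001 to 84200000 held 37.1% and 36.4% against 9.12% and 23.0% (limma adjusted p = 0.195). The AUTS2 window passed without control 2 (limma adjusted p = 0.0271) or without knockout 2 (0.00815), and without knockout 2 the MAGI2 and DLG2 windows passed too (0.0137 and 0.0245). Of all windows, 2.37% passed with lower coverage without control 2 and 8.31% without knockout 2. The window of CSMD1 (3800001 to 3900000) rested on 1 knockout, with 33.6% and 27.6% against 8.07% and 25.8%. In the window of RBFOX1 (7500001 to 7600000) the libraries of both groups lay far apart, with 12.8% and 24.9% against 10.2% and 3.41%. With all 4 libraries and no replicate block none of these 6 windows passed.

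The 4 libraries marked largely different bases of these genes. The Jaccard index of 2 libraries (bases covered in both, divided by bases covered in at least 1) ran from 0.108 at RBFOX1 to 0.265 at CNTNAP2 for the controls and from 0.0653 at RBFOX1 to 0.142 at CNTNAP2 for the knockouts. For the same covered lengths placed independently within a body, the index would be 0.0629 at RBFOX1 and 0.238 at CNTNAP2 for the controls, and 0.0513 and 0.136 for the knockouts. Pairs of a control and a knockout ran from 0.0688 to 0.0981 at RBFOX1 (0.0547 to 0.0586 if independent). At CNTNAP2 they ran from 0.160 to 0.248 (0.148 to 0.207 if independent). At both genes such pairs thus lay above the pair of knockouts and below the pair of controls. At CSMD1 control 1 and knockout 2 shared more (0.151) than the controls did (0.149). At RBFOX1 65.6% of the body lay under no peak in any library, the largest share of the 6, and at CNTNAP2 24.2%, the smallest. Bases that lay under a peak in each of the 4 libraries came to 30.9 kb of CNTNAP2, 26.0 kb of DLG2 and 17.1 kb of MAGI2. They came to 12.0 kb of CSMD1 and 3.40 kb of AUTS2, but only 35 bp of RBFOX1.

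Bases covered in both controls and in neither knockout outnumbered the reverse at every gene, as the same covered lengths placed independently would also give. At AUTS2 they came to 66.0 kb against 8.74 kb (64.2 and 10.7 kb if independent), and at MAGI2 to 115 kb against 15.4 kb (129 and 23.4 kb). At RBFOX1 they came to 23.1 kb against 16.5 kb (19.4 and 12.6 kb). The longest stretch under peaks in all 4 libraries was 2539 bp long and lay in MAGI2 (78386725 to 78389263). In DLG2 it measured 2263 bp (85321501 to 85323763) and lay close to the 5′ end of the body, in CSMD1 2196 bp (3087092 to 3089287), in CNTNAP2 2162 bp (147557986 to 147560147) and in AUTS2 1088 bp (69381345 to 69382432).

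**Figure D4:**
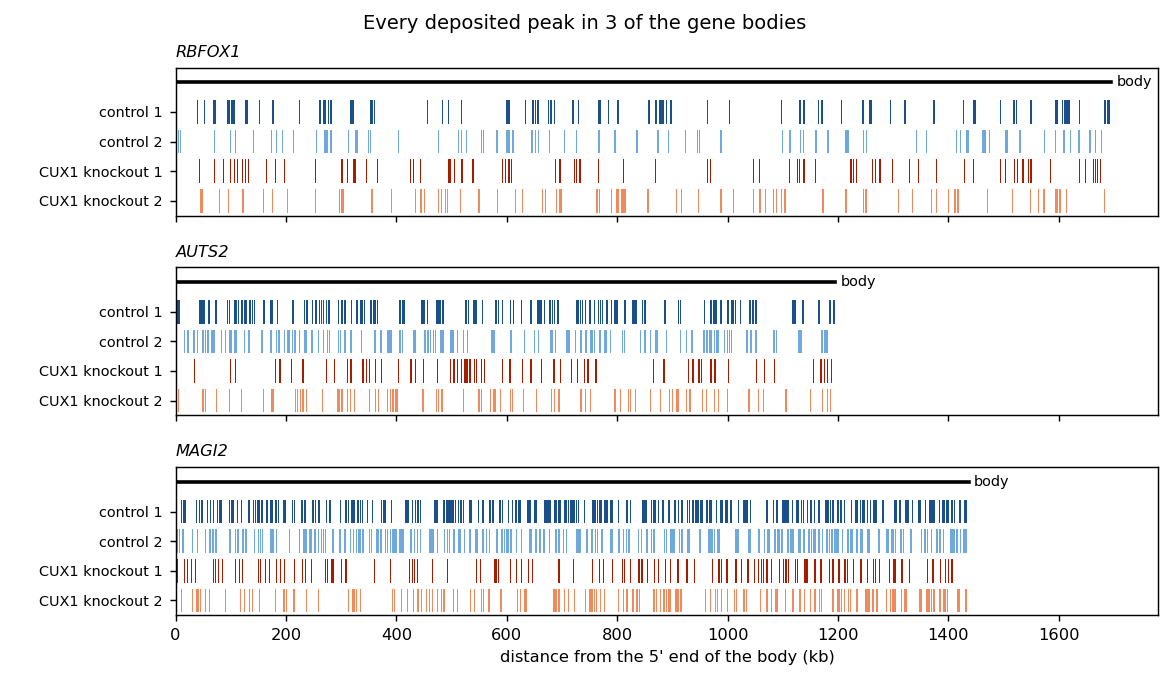
Every deposited peak in RBFOX1, AUTS2 and MAGI2, placed by distance in kb from the 5′ end of the body (horizontal axis), with 1 row per library and the black line marking the body. RBFOX1 is sparse in all 4 rows, and the knockout rows of AUTS2 and MAGI2 hold narrower bars than the control rows.

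Single peaks were weak by the caller's own measure, in these genes as over the genome. None of the listed peaks in the 6 bodies reached a q of 0.05 in any library. Over the genome 14, 310, 6 and 458 of about 250000 peaks did so in control 1, control 2, knockout 1 and knockout 2. With so few over the genome, having none does not set these bodies apart. For each gene the peak with the largest of the authors' −log10 p is named, but this value depends on a read depth that is unknown here, so which library it came from carries no weight. In CSMD1 it was a peak (4338749 to 4339258) of knockout 2, with a −log10 p of 3.83 and a fold of 2.90 over the caller's background. No other library had a peak there. In CNTNAP2 it was a peak of knockout 1 (147979663 to 147980398, −log10 p 3.45) that control 2 covered in full and the other two libraries did not cover. In MAGI2 it was a peak of knockout 1 (78254691 to 78255117, −log10 p 2.74) that control 2 and knockout 2 covered in full and control 1 did not. In DLG2 it was a peak of control 1 (83518001 to 83519071, −log10 p 2.68) that control 2 and knockout 2 covered in full and knockout 1 did not. In AUTS2 (69533915 to 69534348, −log10 p 2.77) and RBFOX1 (6175735 to 6177486, −log10 p 2.76) it was a peak of knockout 1 that no other library covered in full.

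The deposited lists end at different strengths, and the group difference of these genes depended on that end. When only the strongest peaks of each list were kept, up to the covered length of the shortest list, peaks covered 22.2% and 24.2% of MAGI2 in control cells and 17.9% and 14.7% in knockout cells. AUTS2 then held 13.6% and 16.4% against 12.5% and 9.38%, CNTNAP2 23.1% and 25.2% against 19.6% and 20.4%, and DLG2 19.9% and 20.4% against 17.1% and 16.97%. These 4 bodies kept both knockouts below both controls, CSMD1 had overlapping groups (11.8% and 13.2% against 13.2% and 12.1%), and RBFOX1 turned around, with 4.83% and 5.31% in the controls and 9.49% and 6.57% in knockout cells. Of all regions, 23.3% had both knockouts lower in this reading and 27.1% both higher, and the median difference was 0.39 points, against -3.59 points for the 6 bodies.

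With 1 limit on −log10 p for all lists (1.49), no body had both knockouts below both controls. RBFOX1 was higher in both knockouts, at 9.49% and 5.02% against 3.00% and 3.16%, and the other 5 bodies had overlapping groups. In that reading 59.2% of all regions were higher in both knockouts. The limit on −log10 q (0.0335) gave the same split, with RBFOX1 at 4.83% and 4.77% against 1.07% and 2.69%, an order held by 34.5% of all regions, while 1.57% were lower in both knockouts. MAGI2 was the only one of the 6 bodies whose knockout mean was the lower one in all 4 readings, by -17.1, -6.87, -1.48 and -1.64 points (lists as deposited, equal covered length, limit on p, limit on q), the last 2 with overlapping groups. None of the 6 bodies passed in any of these readings, but outside the lists as deposited almost no region did. Of all regions, 0.036% passed with lower and 0% with higher coverage at equal covered length. With the limit on p it was 0.0364% and 0.729%, and with the limit on q 0% and 0%.

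**Figure D5:**
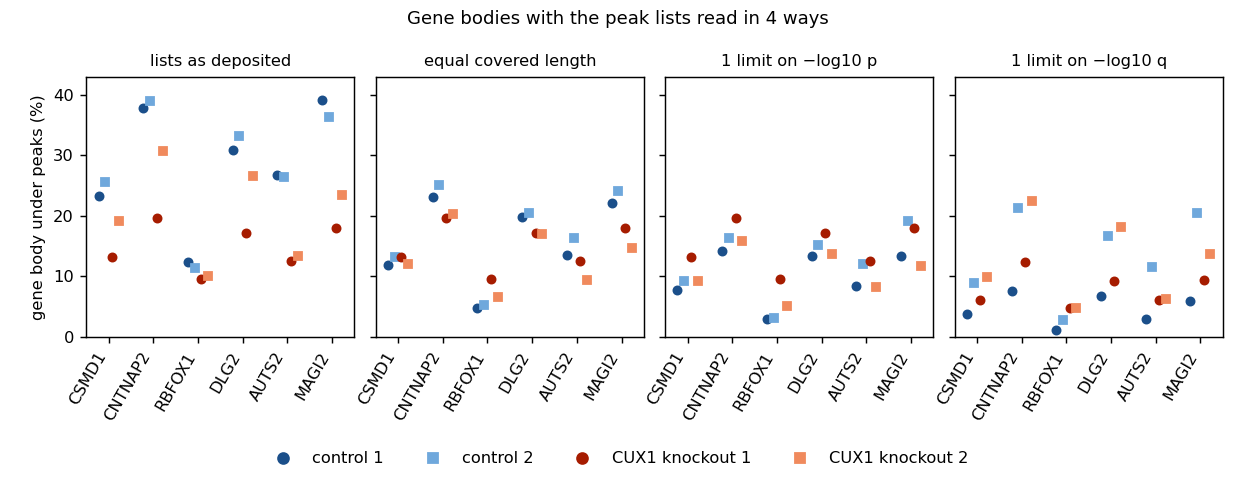
Percent of each gene body under peaks (vertical axis) with the lists read as deposited, to equal covered length, to 1 limit on −log10 p and to 1 limit on −log10 q, with 1 point per library. Both knockouts lie below both controls at all 6 bodies in the first panel, at CNTNAP2, DLG2, AUTS2 and MAGI2 in the second and at none in the last 2, and RBFOX1 is higher in both knockouts from the second panel on.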

How the data were processed

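H3K9me2 CUT&RUN libraries of K562 cells (2 control, guide against HPRT, and 2 knockout, guide against CUX1) were grouped by their titles. The hg19 build and the tools MACS2 2.1.0, BWA 0.7.17, deepTools 3.5.1 and SAMtools 1.16.1 are named per the submitters' processing notes. Not given in the sources used here are their settings, any background library and the read depth. From each library the authors deposited 1 broad-peak list of 250000 peaks, with positions, a score, a fold (ratio) over the caller's background, and −log10 p and −log10 q. Peak names carry a "sub" tag in control 1 only and "cux1kd" in both knockouts, and the labels explain neither tag. No label names a batch.

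Positions were counted from 1. Coverage was the percent of a region's bases under peaks, in the 6 bodies, their 1-Mb flanks and all other 1-Mb windows of chromosomes 1 to 22 and X. Regions with a mean of at least 1% were fitted in R 4.3.3 by limma 3.58.1, using eBayes with a trend and a Benjamini-Hochberg limit of 0.05, as was coverage of 100-kb windows. Body minus flanks was tested without a trend. On simulated data, the fit of regions recovered 12% of drops of 10 points and 69% of drops of 20 points. The fit of 100-kb windows recovered 10% of drops of 20 points and 88% of drops of 40 points. Body minus flanks recovered 93% of drops of 10 points and 100% of drops of 20 points. A body or window that did not pass may therefore still differ. Width and spacing used exact permutation tests, and used peaks overlapping a body by at least 1 bp. Within a body, the window named was any past the threshold, or otherwise the 1 with the largest mean difference among those with separate groups. The peak named had the largest −log10 p, and the stretch named was the longest under peaks in all 4 libraries. Alternatives were lists read to a common limit on −log10 p (1.49) or −log10 q (0.0335) or to equal covered length (423443847 bp), each library left out, a replicate block, quantile normalization, log2 relative to the genome (with 0.5 points added), no minimum, gaps of up to 2000 bp filled, flanks of 500 kb or 2 Mb, width over the smallest width, and peaks at least 50% inside. Gene names and promoters came from RefSeq (GRCh38.p14), which gave no hg19 positions. Other long neuronal genes were not analysed here. The genes, lists and tests were chosen with earlier results of these data known.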

Additional observations from a re-analysis of the deposited data

How the results depend on the processing

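The lower coverage of the bodies depended on where the lists end. Over the 6 bodies the median difference was -11.75 points, -3.59 at equal covered length, -2.87 after quantile normalization, 1.80 with 1 limit on −log10 p and 1.85 with 1 limit on −log10 q. It lay between -14.57 and -6.61 when 1 library was left out. By gene, the limit on p gave 2.67 (CSMD1), 2.49 (CNTNAP2), 4.18 (RBFOX1), 1.11 (DLG2) and 0.0995 points (AUTS2), and the limit on q 1.69 (CSMD1), 2.93 (CNTNAP2), 2.92 (RBFOX1) and 2.01 (DLG2). Equal covered length gave 0.150 at CSMD1 and 2.96 at RBFOX1, which had a log2 difference of 0.20 relative to the genome. Of the 6 bodies, only MAGI2 kept its direction under all 12 alternatives. The number of bodies past the threshold was 0, and between 0 and 5 with 1 library left out, while between 3.32% and 61.4% of all regions passed with lower coverage.

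The replicate numbers only name the libraries, since deviations of same-numbered libraries correlated at 0.175 over 2802 regions and 2 pairs cannot show a pairing. With a replicate block 1 body (AUTS2, limma adjusted p = 0.00155) and 1 window of 100 kb (AUTS2, limma adjusted p = 0.0191) passed, against 7.32% of all regions and 0.613% of all windows with lower coverage, and no other call among the bodies, body minus flanks or named windows changed. Windows of 100 kb inside the bodies had a median difference of -11.0 points, -3.90 after quantile normalization, -1.37 at equal covered length, 2.52 with the limit on p and 2.45 with that on q. With 1 library left out it lay between -13.5 and -6.83 points, and between 0 and 14 windows passed, against between 0.0327% and 8.31% of all windows. The named windows turned around at CNTNAP2 (5.67 and 3.82 points with the limits on p and q), DLG2 (3.35 and 3.99) and CSMD1 (2.70, limit on q).

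With 1 library left out, body minus flanks ran from -1.66 to 0.365 points at CNTNAP2, changing sign without control 1, and from -3.98 to 1.65 points at DLG2, changing sign without control 2. The number of bodies below their flanks in every library was 2, and 4 at equal covered length and with either limit. Peak width kept its direction under all 9 alternatives at all 6 genes. Spacing did not, with a median change over the genes of 30.9%, -10.8% at equal covered length, -30.0% with the limit on p and -53.0% with that on q. With the limits on p and q the gaps of CSMD1 changed by -30.8% and -43.4%, of CNTNAP2 by -27.7% and -41.1%, of DLG2 by -29.2% and -54.8%, of AUTS2 by -41.0% and -58.8% and of MAGI2 by -11.7% and -51.3%. At equal covered length the gaps of CSMD1, DLG2 and AUTS2 changed by -24.7%, -5.03% and -16.6%. The cause of these changes was not tested, beyond the fact that a limit removes different numbers of peaks from each list. Read depth is unknown, 2 libraries a group limit every comparison, and peak lists of fixed length hold no measure of the total mark.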
